A study of Drosophila melanogaster with 3 samples.

Results

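Anti-HA CUT&Tag regions that lay far outside annotated genes, called distal regions here, were examined in wing imaginal discs of Drosophila melanogaster. Peaks of the 3 libraries on chromosomes 2L, 2R, 3L, 3R, 4 and X that shared 1 bp or more were joined, and 5729 of 10760 merged regions, the consensus regions, held a peak of all 3 libraries. Of these, 784 (13.7%) were distal, since their centre, the mean of the summits, was outside every gene and over 1000 bp from the boundary of any gene. The choice rests on position and on the presence of a peak, and not on the height of the peaks. The discs came from third-instar larvae of the genotype nub>GFP;UAS-BunA-HA kept at 25 °C. Every library thus carried GFP and an HA-tagged BunA isoform of bunched, a gene of the TSC22 family, both driven by nubbin-Gal4, and no control library was analysed here. The driver is active in the wing pouch, so the tagged protein is present in only some cells of the disc, which also holds muscle precursors and tracheal cells. Nothing in the labels ties the libraries to separate animals, and the spread between them may be technical.

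CUT&Tag places a transposase at an antibody's target and sequences the DNA cut there. In the fly genome, genes for developmental transcription factors and signals often have long stretches of intergenic sequence around them, and enhancers in those stretches drive their expression in parts of a tissue. A distal region is a place where the anti-HA reads piled up in all libraries. It is not known from these files to be an enhancer. Without a control library, antibody signal and open chromatin cannot be told apart.

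Over the 6 chromosomes together, distal sequence held fewer consensus regions per Mb than sequence near or inside genes. Between the first and the last gene of each chromosome, 29.5 Mb lay over 1000 bp from any gene and held 750 distal regions, or 25.4 per Mb. Sequence within 1000 bp of a gene boundary held 73.0 consensus regions per Mb, and sequence deeper inside genes held 33.2 per Mb. Away from the centromeres, distal sequence held 31.0 per Mb, and no such value was taken for the inside of genes. The other 34 distal regions lay beyond the outermost annotated gene of a chromosome. By chromosome, the density of distal regions was 28.5 per Mb on 3L, 27.9 on 3R, 24.1 on 2L, 23.7 on X and 21.3 on 2R. The short chromosome 4 differed, with 5 distal regions in 0.101 Mb, or 49.7 per Mb, against 16.5 per Mb inside its genes. Distal regions made up 25.9% of the consensus regions of chromosome 4, 18.4% of those of 3L and 9.94% of those of X.

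The density changed little with distance from the nearest gene once the first kilobases were passed. On the chromosome arms, away from the centromeres, it was 38.2 per Mb at 1 to 2 kb from a gene, 28.7 at 2 to 5 kb, 29.7 at 5 to 10 kb, 27.5 at 10 to 20 kb and 32.0 at 20 to 50 kb. The median distance of a distal region from a gene was 4715 bp, with quartiles of 2243 and 9957 bp, and 196 regions (25%) were over 10 kb away. Centromere-proximal sequence, for which rough bounds of a few Mb at the inner end of each arm and all of chromosome 4 were taken, held 141 distal regions, against 643 on the arms. Between the outermost genes this came to 118 regions at 13.0 per Mb, against 632 at 31.0 per Mb on the arms. There the median distance was 27152 bp. Of centromere-proximal consensus regions 48.8% were distal, against 11.8% of those on the arms.

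**Figure D1:**
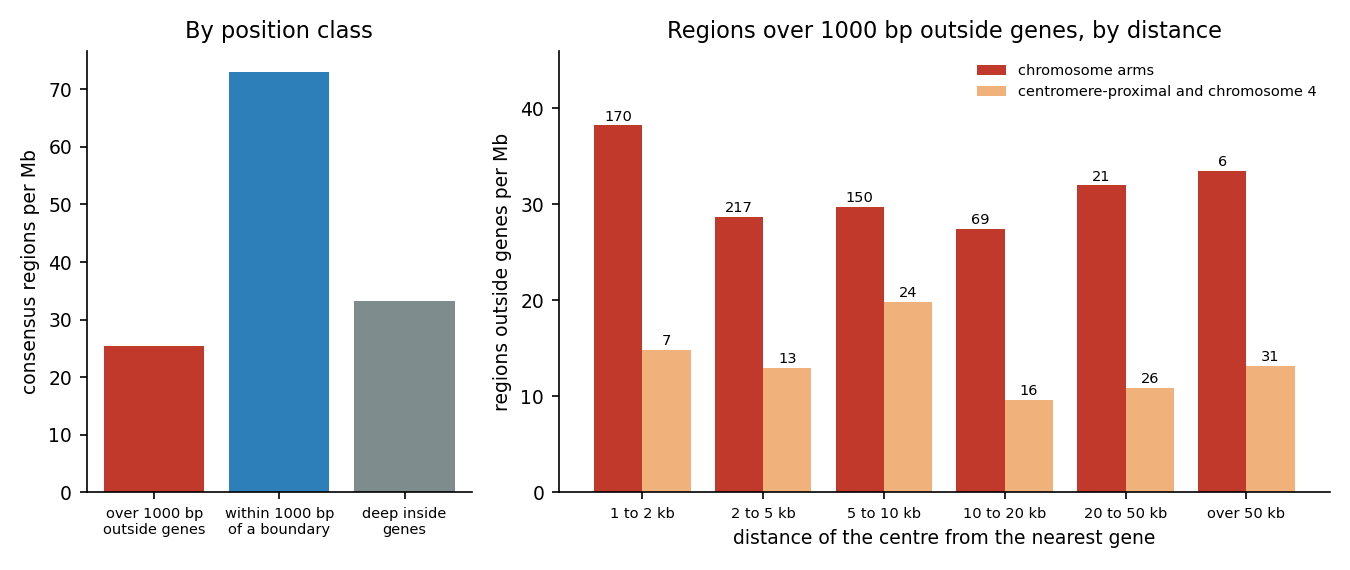
Consensus regions per Mb of sequence in each position class (left), and distal regions per Mb by distance of their centre from the nearest gene (right), on the chromosome arms and in centromere-proximal sequence with chromosome 4. Numbers above the bars on the right count regions, and the arms stay between 27.5 and 38.2 per Mb from 1 to 50 kb.

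Distal regions had lower peaks than other consensus regions in each library. Fold enrichment here is the authors' value for a peak, a linear ratio over the background that the peak caller estimated, and the highest peak of a library in a region was taken. The median was 7.13, 7.32 and 7.18 in replicates 1, 2 and 3 for distal regions, against 7.98, 8.65 and 8.49 for all other consensus regions. The difference was -1.16 ± 0.273 (SD, n = 3), with the same sign in 3 of 3 libraries (exact sign-flip permutation test over libraries, two-sided, p = 0.25). A test over 3 libraries cannot give a smaller value. Regions near a gene boundary had a median of 8.60 ± 0.472 and those deep inside genes 8.08 ± 0.163. On the arms alone the distal median was 7.50 ± 0.140, while centromere-proximal distal regions had 6.02 ± 0.348.

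**Figure D2:**
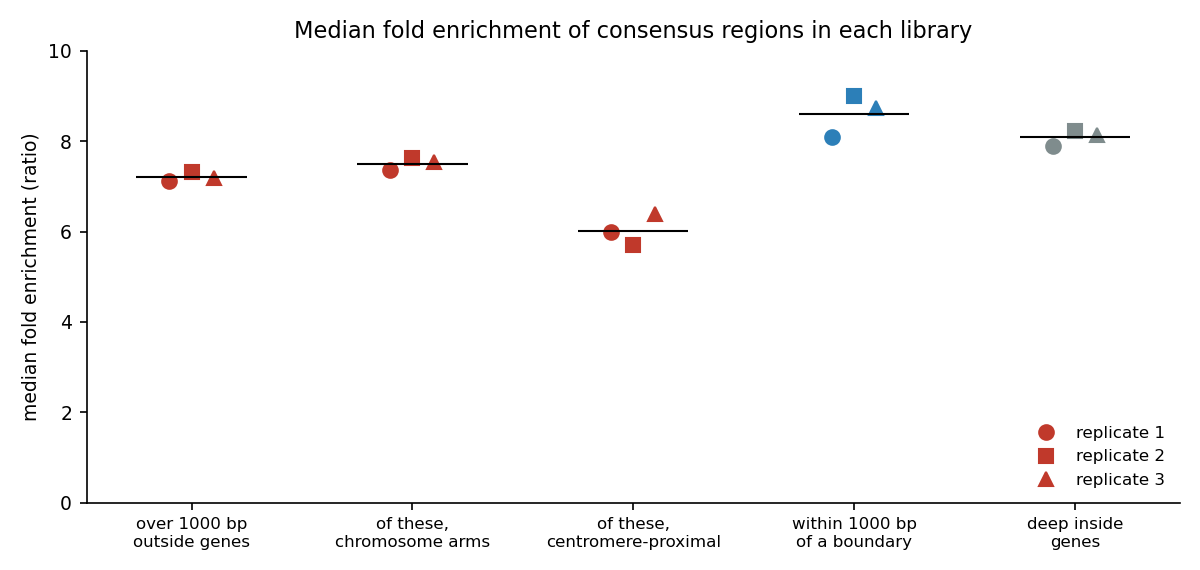
Fold enrichment of peaks, as the median in each library (symbols) and its mean over libraries (lines), for distal regions, for their chromosome-arm and centromere-proximal subsets, for regions within 1000 bp of a gene boundary and for regions deep inside genes. Every distal value lies under the value of the same library for both other classes.

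Distal peaks also recurred less often between libraries. By the summit of each peak, 59.1%, 66.3% and 62.2% of the distal peaks of replicates 1, 2 and 3 met a peak in both of the other libraries, against 73.5%, 73.2% and 72.3% of all other peaks. The difference was -10.5 ± 3.81 percentage points (SD, n = 3; exact sign-flip permutation test, two-sided, p = 0.25, the smallest possible). The 3 lists held 1356, 1205 and 1285 distal peaks. Of 1829 distal merged regions, 784 (42.9%) had a peak of every library, 367 had one of 2 libraries and 678 of 1. A peak of every library was present in 57.0% of merged regions near a gene boundary and 53.4% of those deep inside genes. Centromere-proximal distal regions recurred in all libraries in 32.9% of cases and those on the arms in 45.9%.

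The libraries placed and scored the distal regions about as alike as other consensus regions. Both groups needed overlapping peaks of all 3 libraries, which in part sets how close the summits lie and may limit the spread of fold. Of 784 regions, 722 had a single peak in each library. The summits lay a median of 39 bp apart from the first to the last library, against 34 bp in other consensus regions. The highest fold was more than 2 times the lowest in 15 distal regions (1.91%), against 1.74% of other consensus regions. The most uneven was on X at 22433009 to 22433195, between CG41562 and CG14621, with folds of 37.4, 12.9 and 18.4. Median peak width was 199, 207.5 and 197 bp in distal regions, against 185, 192 and 195 bp elsewhere. The width difference of 10.5 ± 7.40 bp (SD, n = 3) turned to -4.25 bp without replicate 2, so no direction is given for it.

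The 10 highest distal regions of the arms, by mean percentile of fold, lay beside genes of differing kinds. Positions are on dm6 and counted from 1. The highest on the arms, at 6904089 to 6904429 on 3L, had folds of 19.8, 25.0 and 23.2 in replicates 1 to 3. It lay 7796 bp from Prat2, which encodes an enzyme of purine synthesis, and 109262 bp from vvl, which encodes a POU domain transcription factor of trachea, nervous system and wing veins. A region at 8652528 to 8653043 on 3L had 18.3, 20.3 and 19.9. Its flanking genes were Pex7, for a peroxisomal import receptor, 1695 bp away, and hry (hairy), for a repressor of the Hes family that patterns bristles, 23053 bp away. Ranked by fold among the peaks of each library, these regions had mean percentiles of 98.8 and 98.0.

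Regions of similar height stood beside other genes. A region at 11010289 to 11010951 on 3L, 1352 bp from klu, which encodes a zinc finger protein of neural precursors, had folds of 18.1, 20.2 and 18.9. A region at 8661018 to 8661374 on X, 10602 bp from oc, the orthodenticle homeobox gene, had 17.7, 21.4 and 17.0. The region at 10766832 to 10767095 on 3L, between NijA, for an adhesion protein of the ninjurin family, and CG43245, had 20.5, 19.2 and 17.9. On 2L, the region at 20148479 to 20148664, 13639 bp from CG10651, had 16.5, 24.3 and 21.9, with replicate 1 the lowest. A further 2L region, at 21397306 to 21397505, had 17.4, 20.7 and 22.5 and lay 4093 bp from nrv3, a sodium pump subunit gene, on the side of the histone gene cluster.

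The other 3 of the 10 highest arm regions were near chromosome ends. On X, regions at 66840 to 67407 and at 6770 to 7304 had mean folds of 21.4 ± 1.39 and 21.1 ± 1.94 (SD, n = 3). Both lay in the 120312 bp stretch between a Stellate copy, SteXh:CG42398, and lncRNA:CR40469. The region at 25279761 to 25280124 on 2R, beyond the last gene CG9380, had 20.2 ± 1.55. Within 100 kb of the outer chromosome ends, a window chosen after the values were seen, 31 distal regions had a median fold of 10.7, against 7.13 for the other 753. These 31 comprised 8 regions on X (median 14.7), 9 on chromosome 4 (11.9), 6 on 3R (9.28), 4 on 2R (17.4), 3 on 2L (8.72) and 1 on 3L (11.7). The placement of reads from repeated sequence is not described, and its part in these values was not tested.

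Inside centromere-proximal sequence a few regions far exceeded the rest. The highest consensus region of these chromosomes, on 2R at 870230 to 870563, had folds of 75.3, 74.7 and 74.1 and lay 14725 bp from CG46302. A second, at 748754 to 748932 on 2R, had 54.4, 48.8 and 52.9 and lay 43005 bp from DIP-lambda, a gene of neuronal surface proteins. The next were at the inner ends of 2L (25.8 ± 1.30) and X (25.1 ± 2.25) and near the pseudogene CR41379 on 2R (23.5 ± 1.57; SD, n = 3 each). That on X lay 65703 bp from the nearest gene, mir-10404-5. The median over all centromere-proximal distal regions was 6.07. The 3 distal regions with the lowest percentile, on 3L and 2R, had mean folds of 3.08, 3.10 and 3.20.

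The distance limit cut through a continuous run of positions. Just inside the distal class, at 1005, 1007 and 1009 bp from a gene, regions had mean folds of 6.86, 8.12 and 5.43. Just outside it, at 998, 996 and 989 bp, they had 15.9, 17.6 and 5.22.

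Most distal regions shared a stretch between genes with another one. They occupied 389 stretches, of which 384 lay between genes and the rest beyond the outermost gene of a chromosome. Of 784 distal regions, 555 (70.8%) shared their stretch with another distal region. Of the 2963 stretches between genes that were long enough to hold a distal region, 384 (13%) held one. The occupied share was 4.06% for stretches of 2 to 5 kb, 21.3% for 10 to 20 kb and 41.1% for those over 50 kb. Per Mb of distal sequence these 3 bins held 35.3, 32.0 and 16.8 distal regions. On the arms, 18 stretches over 50 kb held 43.4 regions per Mb, and in centromere-proximal sequence 55 of them held 11.2.

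The stretches with most distal regions were of differing kinds. A stretch at the inner end of X, between the ribosomal RNA gene 2SrRNA:CR45864 and mir-10404-5, held 36 in 246485 bp, with a median fold of 5.74. No gene is annotated inside it and its sequence was not examined, so single positions there are uncertain. The first 567075 bp of 3R, before Myo81F at the centromeric end, held 14 of median fold 5.07. On the arm of 3L, the 75047 bp between NijA and CG43245 held 12, with folds of 3.85 to 19.2. On 2R, the 36783 bp between Su(z)2, a Polycomb group gene, and CG13323 held 10 regions with folds of 4.61 to 10.9. The X stretch beside SteXh:CG42398 held 10 as well, and the end of chromosome 4 beyond Cadps, which encodes a protein of vesicle release, held 9 of median fold 11.9. Stretches with 8 distal regions were those between Pex7 and hry, between CG15258 and lncRNA:CR44859 on 2L, between CkIIalpha, a protein kinase gene, and CG33217 on 3L, and between CG41562 and CG14621 on X. That at CkIIalpha packed its 8 into 4266 bp, at a low median fold of 4.35.

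The nearest annotated gene was often a long non-coding RNA. It was protein coding for 498 distal regions (63.5%), though 78.7% of annotated genes on these chromosomes are. It was a long non-coding RNA gene for 219 (27.9%, against 11.1% of genes) and a microRNA gene for 25 (3.19%, against 1.47%). Transfer RNA genes were nearest for 7 (0.893%, against 1.64%). These shares do not take into account how much distal sequence lies beside genes of each type. A single X stretch with 36 distal regions ends at mir-10404-5, the gene nearest to its highest region. Its other end is the ribosomal RNA gene 2SrRNA:CR45864, and only 12 distal regions in all had a ribosomal RNA gene nearest. Most of the 25 microRNA cases therefore come from that stretch.

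Most genes of a list of wing disc patterning factors stood beside distal regions. A gene is said to flank a distal region when it is the nearest protein-coding gene on either side. Of 13922 protein-coding genes on these chromosomes, 619 (4.45%) flanked at least 1 distal region, or 17% of the 3650 genes that have distal sequence beside them. Of 45 transcription factor genes of wing disc patterning, 34 (75.6%) did, with 76 distal regions between them, 9.69% of all. The list was written with earlier results on these libraries known, and the same genes often had a consensus region within 1000 bp of a boundary (38 of 45), so the count is no independent evidence.

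Many of these genes have long flanks, and 23 of the 45 had over 20 kb of distal sequence beside them. Among genes with that much, 22 of 23 patterning genes flanked a distal region, against 276 of 735 (37.6%) genes on no list. With 10 to 20 kb the counts were 6 of 8, against 101 of 578 (17.5%), and with 5 to 10 kb they were 2 of 4, against 80 of 618 (12.9%). Per Mb of distal sequence, stretches beside patterning genes held 74.9 distal regions and those beside genes on no list held 25.2. The latter include centromere-proximal sequence, which held 13.0 per Mb, while all distal sequence of the arms held 31.0. Among patterning genes only ap had its highest distal region in centromere-proximal sequence. The 735 genes on no list also include genes beside such sequence, and no count for the arms alone was made. The height of the regions was alike, with a median fold of 7.41 beside patterning genes and 7.29 over all distal regions. When the regions were built from the peaks above each library's median fold alone, 20 of 45 patterning genes flanked a distal region, against 2.70% of protein-coding genes.

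**Figure D3:**
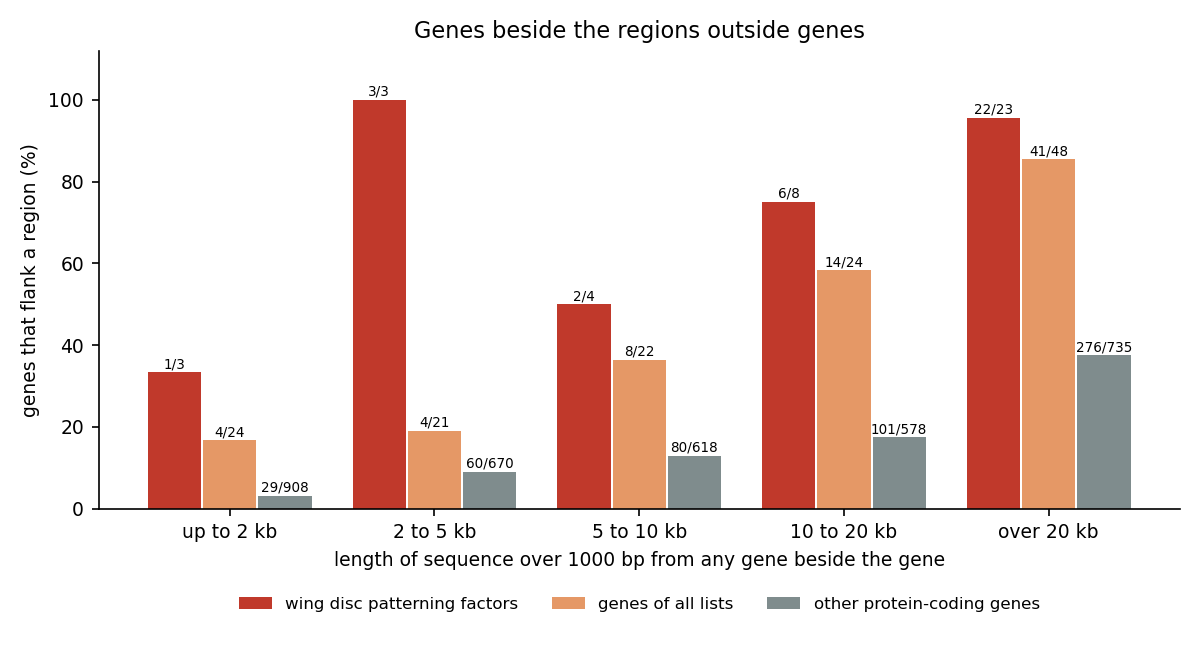
Share of genes that flank a distal region, by the length of distal sequence (over 1000 bp from any gene) beside the gene, for wing disc patterning factors, for the genes of all 13 lists together and for other protein-coding genes. Fractions above the bars give genes that flank a distal region over genes in the bin, with 22 of 23 patterning genes and 276 of 735 other genes in the longest bin.

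Among the listed genes, hry, Cadps, en, hth, tsh and vvl flanked the most distal regions. At en, the homeobox gene that sets posterior identity, 8 distal regions flanked the gene, 7 of them spread from 1465 to 47621 bp beyond one end, towards tou. Their mean folds ran from 5.31 to 14.9, and the highest, at 11561456 to 11561991 on 2R, had 14.4, 16.1 and 14.1 in replicates 1 to 3. The region between en and its paralogue inv had 12.5, 12.4 and 10.9. At hth, a homeobox gene of the wing hinge, 8 distal regions of mean fold 5.63 to 9.05 stood on both sides, up to 56016 bp away, beside 21 consensus regions in or near the gene itself. At tsh, a zinc finger gene of hinge and trunk, 8 had folds of 4.91 to 9.54, and 7 of them lay beyond the same end, from 2685 to 44361 bp away. At vvl, 7 of 8 lay on one side, from 7650 bp to the strong region near Prat2. The hry gene had 11, of which 4 stood between 6231 and 7699 bp from the gene. Among these 4, the one with a mean fold of 12.5 ± 1.85 (SD, n = 3) stood above the others, at 4.71 to 6.12.

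**Figure D4:**
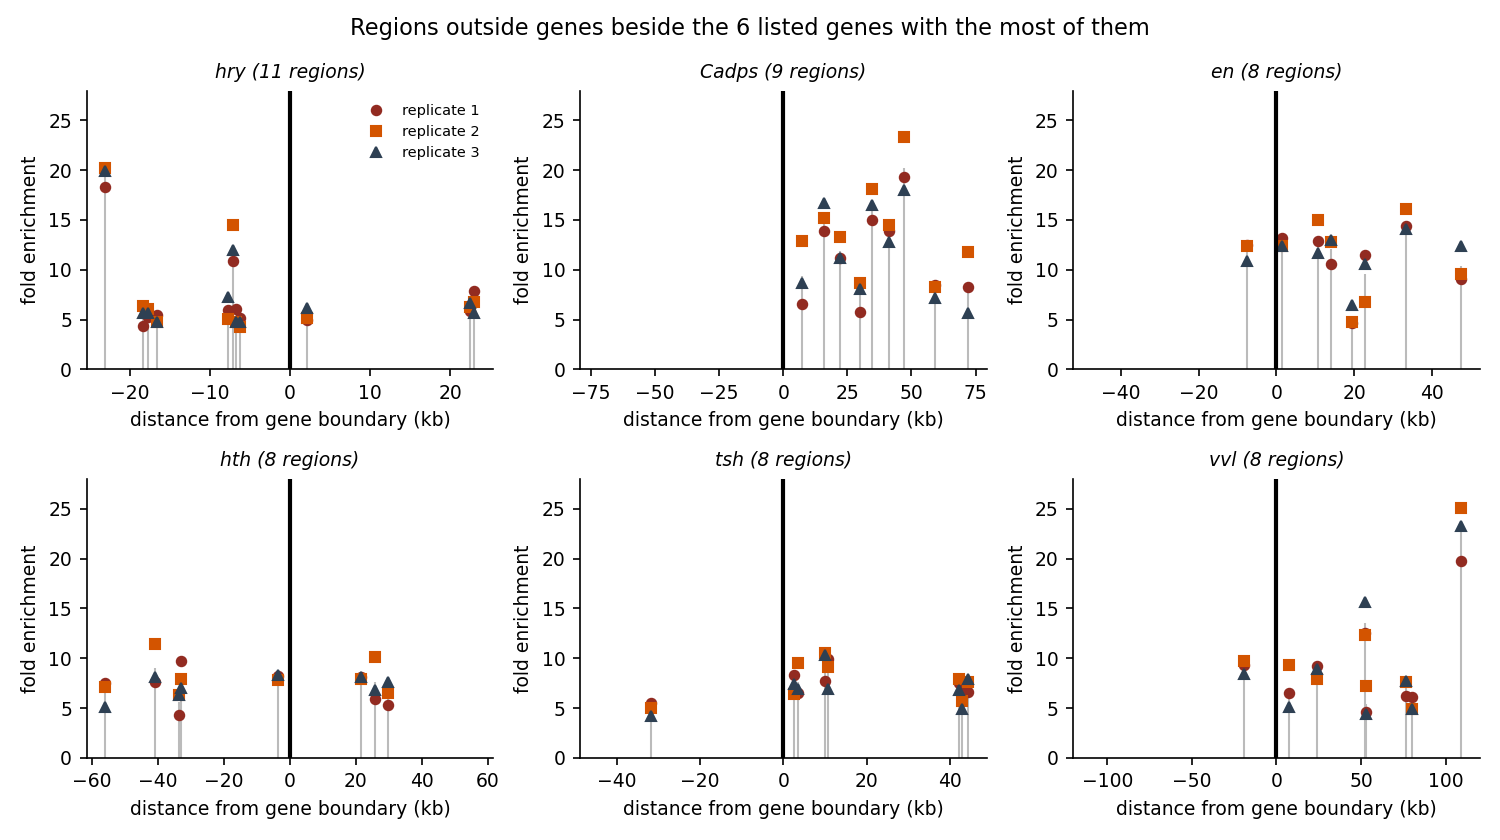
Fold enrichment in each library (symbols) and its mean (grey stems) of the distal regions beside the 6 listed genes with the most of them, by distance from the nearer gene boundary. The gene itself is drawn as the line at 0, negative distances lie before its lower coordinate, and hry has the most, with 11.

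Other patterning genes had fewer but in part higher distal regions. The highest was 1249 bp from pdm2, a POU domain gene next to nub, at 12655701 to 12656057 on 2L, with folds of 15.1, 18.6 and 18.6. The nub gene, whose driver was used in these discs, had a region of 5.95 ± 0.886 (SD, n = 3) at 8927 bp. Its flanking gene on the other side was bun (bunched), the gene of the tagged protein. Antp, a Hox gene, had 14.2 ± 2.22 at 25799 bp, bab2, a gene of leg segments, 13.5 ± 3.17 at 1029 bp, and B-H2, a Bar homeobox gene, 13.3 ± 0.933 at 1011 bp. The last 2 sat just beyond the distance limit. Dll, the distal limb homeobox gene, had 3 regions with a top of 12.9 ± 2.59, and grn, a GATA factor gene, 4 with a top of 12.2 ± 2.48. Between salr and salm, the paired spalt genes of the central wing, 5 regions had folds of 4.38 to 8.16, and Dr, an Msx homeobox gene, also had 5, with a top of 8.09 ± 1.51. The dorsal selector ap had 3 (top 7.52 ± 1.09) and the wing selector vg 2 (top 7.35 ± 1.55). The 11 patterning genes that flanked none were Doc3, Ubx, ara, brk, ci, kn, sd, tio, tup, ush and zfh2. Of these, brk, kn, sd and ush had no distal sequence beside them.

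Genes of secreted signals and their partners flanked distal regions in 13 of 34 matched cases (38.2%), against 4.45% of all protein-coding genes. Of the 22 with distal sequence beside them 59.1% did, against 17% of all such genes. Their median length of it was 17953 bp, against 6270 bp over all such genes. With over 20 kb of it 8 of 10 signal genes did, against 276 of 735 (37.6%) genes on no list. With 2 to 5 kb 0 of 2 did, against 60 of 670 (8.96%). Delta, taken to be the gene listed as Dl, was not matched and flanked 1 of fold 5.43. The wg gene, which encodes the Wingless ligand, and its neighbour Wnt6 had a region between them at 7319796 to 7320434 on 2L, 3745 bp from wg, with folds of 12.1, 15.3 and 15.1. The morphogen gene dpp had 4, of which the one at 7541 bp had 11.1, 13.0 and 12.6 and the rest had mean folds of 5.11 to 5.53. Beside vn, an EGFR ligand gene, 6 regions on the same side comprised peaks of 12.5 ± 1.12 and 9.66 ± 0.326 (SD, n = 3) and others of 4.36 to 7.18. Those of hh, the Hedgehog ligand gene, reached 8.23 ± 1.21. The FGF ligand genes pyr and ths had 1 each, of 9.34 ± 2.10 and 8.99 ± 0.715. The Notch ligand gene Ser had 5, led by 9.79 ± 0.408, and fng, for a glycosyltransferase that modifies Notch, had 3, led by 9.17 ± 0.764. The JAK-STAT ligand genes upd1, upd2 and upd3 had 2, 1 and 4, with tops of 6.28, 9.53 and 6.48.

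Among genes of the Hippo pathway, 3 of 35 (8.57%) flanked a distal region, against 4.45% of all protein-coding genes. Of the 9 pathway genes with distal sequence beside them 33.3% did, against 17% of all such genes. The gene for the cadherin ligand Dachsous, ds, had 1 (6.30 ± 0.560; SD, n = 3). The Golgi kinase gene fj had 4, all at least 6005 bp away, with a top of 7.92 ± 1.64 at 29619 bp, towards Ote. The upstream regulator ex had 4 within 3555 bp of the gene, led by 7.46 ± 0.421. Of 22 targets, 10 (45.5%) flanked a distal region: ex, fj, vn, Ser, wg, vg, upd1, upd2, upd3 and dally, a glypican gene with 4 regions led by 8.79 ± 0.133. Of the 12 targets with distal sequence beside them 83.3% did, against 17% of all such genes. Their median length of it was 20008 bp, against 6270 bp over all such genes. With over 20 kb of it 5 of 6 targets did, against 276 of 735 (37.6%) genes on no list. Most of the 10 are also on the Hippo, patterning or signal lists, so the counts overlap. With the peaks above each library's median fold alone, 4 of the 22 targets and 0 of the 35 pathway genes flanked a distal region, against 2.70% of protein-coding genes. Regions beside the targets were of modest height, with a median fold of 5.96, against 7.29 over all distal regions.

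Of 19 ecdysone response genes 5 (26.3%) flanked a distal region, against 4.45% of protein-coding genes. Of the 12 with distal sequence beside them 41.7% did, against 17% of all such genes. The 9 regions beside ecdysone response genes, 4 of them at Eip93F, had a median fold of 11.8, against 7.29 over all distal regions. Eip93F, a transcription factor gene of metamorphosis, had 4, led by folds of 19.0, 16.9 and 14.3 at 21921557 to 21921815 on 3R, 27452 bp from the gene and 6116 bp from Qsox2. Eip78C, a nuclear receptor gene, had 16.4, 13.5 and 10.7 at 1576 bp, with replicate 1 the highest. The nuclear receptor genes Eip75B and Hr38 reached 12.5 ± 2.24 and 11.8 ± 3.08 (SD, n = 3), and ImpE1 had 4.48 ± 0.776. Among proneural genes and Notch targets 3 of 22 flanked a region, hry, sens (9.88 ± 2.07) and E(spl)mbeta-HLH (6.59 ± 0.834). Of Hox genes 3 of 8 did, Antp, abd-A (12.6 ± 2.53) and pb (7.19 ± 2.22), and without replicate 2 the count was 5. Of the retinal determination genes 3 of 8 did, toy (11.1 ± 2.68), eyg (9.69 ± 1.63) and dac (6.63 ± 0.988). The eyg region lay 27949 bp from eyg and 1920 bp from toe. With other settings the Hox count ran from 1, at a limit of 2000 bp, to 6, with protein-coding genes only. The retinal determination count ran from 1 to 5. Among genes with distal sequence beside them, 25% of proneural and Notch target genes flanked a region. The share was 37.5% for Hox and 42.9% for retinal determination genes, against 17% of all such genes.

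Genes that mark other cells of a disc preparation flanked distal regions in part. Of 9 matched tracheal genes 5 did, namely vvl, kni, knrl, esg and sty, led after vvl by knrl, a nuclear receptor gene, at 14.4 ± 0.112 (SD, n = 3). The other matched tracheal genes, trh, btl, rib and bnl, flanked none. The 5 that did act in the wing disc epithelium too, and which cells gave their regions was not tested. The gene dysf, taken to be the one listed as dys, was not matched and flanked 1 of fold 10.3. Of 13 muscle precursor genes 3 did, hbs (10.1 ± 0.613), lbe (8.35 ± 3.54) and htl (4.20 ± 0.718), and of 11 neuronal genes 2 did, Cadps and futsch (13.3 ± 0.142). None of 10 haemocyte genes and none of 8 fat body genes did, though only 4 and 3 of these have distal sequence beside them. Among genes with distal sequence beside them, 62.5% of tracheal, 33.3% of muscle precursor and 28.6% of neuronal genes flanked a region. Of all protein-coding genes 4.45% did, and 17% of those with distal sequence beside them. The median length of that sequence was 36296 bp for tracheal genes, against 6270 bp over all such genes. Next to the share of 17%, 4 haemocyte and 3 fat body genes are too few to read as a lack. These counts concern peaks and say nothing on expression, and the part of other cell types in them was not tested.

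Boundary regions were counted at the same genes. A consensus region was centred within 1000 bp of a boundary of 231 of the 619 flanking genes (37.3%), against 528 of 3031 genes (17.4%) that had distal sequence beside them but no distal region in it. Over all protein-coding genes the share was 19.7%.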

How the data were processed

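The 3 deposited peak lists, 1 per library, hold 9268, 9005 and 9225 peaks on dm6. MACS2, Bowtie2 and Bowtie, Trim Galore, FastQC, deepTools, HOMER, ChIPseeker and R 4.2.1 are named per the submitters' processing notes, with no roles. Settings and the handling of duplicate or repeat reads are not stated. For each peak the deposited lists give positions, a score, a fold enrichment as a linear ratio over the caller's background, and −log10 p-values and q-values. The score and the −log10 p-value, both the authors', were not used. The lists hold no read counts, so depth is unknown and no counting interval is given. Each list carries the name of a single library in its peak names. Peaks on Y, the mitochondrion and unplaced sequence were left out. Percentiles are within-library ranks of fold enrichment over all peaks.

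Peaks were merged and classed with Python 3.11.15 and pandas 2.3.3 against RefSeq genes of dm6 (Release 6), 17684 on the chromosomes used, without strand, exons or start sites. Centromere-proximal sequence was taken as the last 1.5 Mb of 2L, the first 6 Mb of 2R, the last 5 Mb of 3L, the first 5 Mb of 3R, the last 2 Mb of X and chromosome 4. No genome sequence was used here, so no sequence is shown, planned motif counts were not made, and unassembled or repeated sequence was not set apart. Within-library differences were tested over libraries with an exact sign-flip test. Lists were described by counts beside those of all protein-coding genes, with no test. Of 250 listed names, 5 (Dl, d, ban, Bearded and dys) were not matched to a protein-coding gene and were left out. The genes Delta and dysf, taken to be those listed as Dl and dys, each flanked 1 distal region and were counted on no list. The members and lists were chosen with earlier results of these data known. Named regions were the 10 highest by percentile on the arms, the 5 highest in centromere-proximal sequence, the 3 lowest and the 8 stretches with most regions, with ties. Listed genes beside a distal region could be named. The merging and classing code was tested on simulated peaks. Alternatives changed the peak threshold, the overlap, the libraries required, the distance, the centre, the gene set and the centromere-proximal sequence.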

Additional observations from a re-analysis of the deposited data

Results flagged for a closer look

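The Y chromosome was outside the rule that chose the distal regions, but it held 28 consensus regions over 1000 bp from any gene, of 39 consensus regions in all. No control library was analysed to set beside this signal. Their median fold was 6.86 and the highest was 58.4 ± 1.68 (SD, n = 3).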

How the results depend on the processing

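With the peaks above each library's median fold alone, there were 311 distal regions in 216 stretches, and 46 listed genes flanked one, against 784, 389 and 72 with all peaks. Without replicate 1, 2 or 3, which then asks for a peak in both other libraries, distal regions numbered 896 to 918, stretches 427 to 437 and listed genes 74 to 78. The median fold of distal regions stayed under that of other regions in all 12 alternatives (difference -0.40 to -1.33), and the recurrence of distal peaks stayed lower (-5.73 to -11.5 percentage points). The width difference ran from -4.25 to 7 bp without 1 library and changed sign without replicate 2; the cause was not tested. Patterning genes that flanked a distal region numbered 26 to 35 of 45 in the 11 alternatives other than the higher peaks, with 26 at a limit of 2000 bp. Counts for single lists moved by over 1.5 times in 17 cases and by less in 139. No paired analysis was possible because the study has 1 group, so no groups share replicate numbers, and distal and other regions were compared within each library. Unknown depth means that a region with peaks in only 1 or 2 libraries may be present but uncalled in the others.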
